A study of Homo sapiens with 4 samples.

Results

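MALAT1, NEAT1, TUG1, OIP5-AS1, EPB41L4A-AS1, DANCR, MIR17HG, MIR22HG and MIR100HG are long noncoding RNAs and microRNA host transcripts, and they were followed through heavy and light polysomes of HCT116, an established line of human colorectal carcinoma cells. They were chosen by symbol from the deposited count table, and all 9 had a row among its 26364. The series holds 4 libraries, 1 per group: wild type heavy, wild type light, Dicer1 knockout heavy and Dicer1 knockout light polysomes. Heavy polysomes are RNAs with 10 or more ribosomes and light polysomes those with 9 or fewer, separated from cytoplasmic extract on a sucrose gradient. Both fractions of a genotype are taken here as 1 gradient, so there were 2 gradients. No treatment or time course is given, and the way the knockout was made and the number of its clones were not given in the sources used here.

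Long noncoding RNAs are transcribed and processed much like mRNAs but lack a long conserved reading frame. Some, such as MALAT1 and NEAT1, stay mostly in the nucleus, at splicing speckles and paraspeckles, while others reach the cytoplasm and can bind ribosomes or microRNAs. A microRNA host transcript carries one or more hairpins, which DROSHA cuts out in the nucleus and DICER1 trims in the cytoplasm to short mature microRNAs. What remains of the host is a spliced or cleaved RNA with no agreed further role.

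The hosts among these transcripts carry microRNAs that DICER1 makes, and their mature sequences are shown because the seed (bases 2 to 8 from the 5′ end, in capitals) sets which targets a microRNA finds. The sequences are from RefSeq on GRCh38.p14, and all 10 were matched. MIR17HG, on the plus strand of chromosome 13 (91347686 to 91397592), carries the miR-17-92 cluster, whose members fall into 4 seed groups.
hsa-miR-17-5p: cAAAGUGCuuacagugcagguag
hsa-miR-20a-5p: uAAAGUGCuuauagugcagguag
hsa-miR-18a-5p: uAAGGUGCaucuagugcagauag
hsa-miR-19a-3p: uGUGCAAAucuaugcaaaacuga
hsa-miR-19b-3p: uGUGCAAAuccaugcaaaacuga
hsa-miR-92a-3p: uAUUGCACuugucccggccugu
These hairpins lie in an intron of the canonical MIR17HG transcript and inside an exon of another annotated transcript.

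MIR22HG, on the minus strand of chromosome 17 (1711447 to 1717174), has its single hairpin in an exon. MIR100HG, on the minus strand of chromosome 11 (122028325 to 122556721), has 3 hairpins in introns, each with a seed of its own.
hsa-miR-22-3p: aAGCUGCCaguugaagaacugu
hsa-miR-100-5p: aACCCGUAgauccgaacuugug
hsa-let-7a-5p: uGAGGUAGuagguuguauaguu
hsa-miR-125b-5p: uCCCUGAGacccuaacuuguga
The count table also has a row for each of these 10 hairpins, and 8 of them had no count in any library. The highest hairpin count was 2, for MIRLET7A2 in knockout-labelled light polysomes. Whether the host rows include unprocessed host RNA cannot be read from these counts.

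OIP5-AS1, also called cyrano, is known for a site that pairs with miR-7 along most of its length, and the site is shown for that reason. The part of this site in the OIP5-AS1 values below was not tested. The search looked on the transcript strand for GTCTTCC, the match to the seed, within 6 bases after AACAACAAAATCAC, the match to bases 11 to 24 of miR-7. In the site, capitals mark both matches.
hsa-miR-7-5p: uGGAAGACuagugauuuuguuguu
OIP5-AS1 site: AACAACAAAATCACcaatGTCTTCC
The site lies on chromosome 15 from 41300574 to 41300598 (plus strand, GRCh38), in an exon, at bases 2916 to 2940 of the longest OIP5-AS1 transcript in GENCODE 44 (8881 nucleotides). Among the longest transcripts of 62700 genes, 2 held this pair of matches, OIP5-AS1 and MIR3529, a hairpin annotated opposite a miR-7 hairpin. The seed match alone is common. OIP5-AS1 has 3, and 49.1% of 1277 transcripts at least as long held one within their first 8881 bases. A match describes the sequence and is not a measured binding site.

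The libraries held 17457116 to 20933675 counts, and 3 counts, the most that a count of 0 allows, came to 0.143 to 0.172 CPM (counts scaled to equal library size). DICER1 mRNA, the check of the labels, was counted 500 times in wild type heavy and 547 times in wild type light polysomes, against 925 and 889 times in those fractions of the knockout-labelled cells. It was thus higher in the knockout-labelled libraries, by log2 ratios of 0.95 (counting interval 0.79 to 1.10) and 0.96 (0.81 to 1.11). A loss of DICER1 mRNA was not seen, so this check did not bear out the labels. Whether a working enzyme is still made cannot be read from such a count, so the name "knockout-labelled" is used. Of 8 epithelial markers, 7 had at least 50 counts in each library, and VIL1 was at 0. Of 20 markers of other cell types, COL1A1, ACTA2 and CD68 had at least 50 counts in each library, while the leukocyte markers PTPRC and CD3E and the fibroblast markers DCN and LUM were at 0. Ribosomal RNA, counted as RNA45S5, took 2.61% of the heavy and 3.59% of the light counts of wild type cells, against 4.32% and 5.97% for the knockout-labelled ones.

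In TMM-scaled CPM (a scaling that aligns the bulk of genes between libraries), MALAT1 stood at 123 in heavy and 404 in light polysomes of wild type cells, and at 313 and 904 in the knockout-labelled ones. MIR22HG and MIR17HG rest on few reads, with at most 38 and 18 counts in any library.

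**Figure D1:**
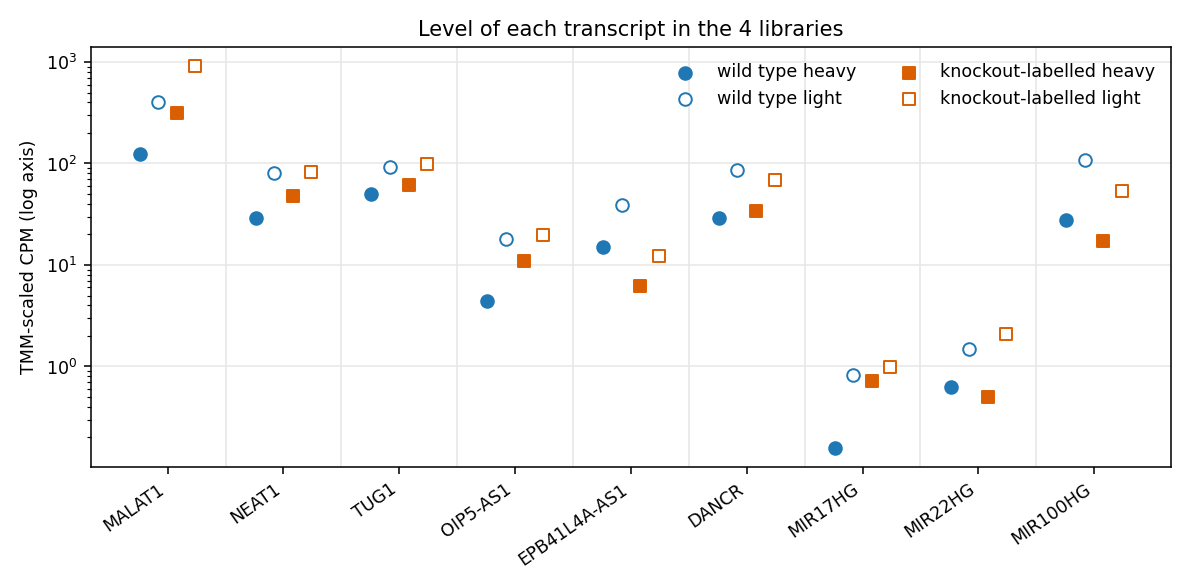
Level of each transcript in each of the 4 libraries, in TMM-scaled CPM on a log axis. Circles are wild type, squares knockout-labelled, filled symbols heavy and open symbols light polysomes, 1 library per symbol. In each genotype, the open symbol lies above the filled one for all 9 transcripts.

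Levels of different transcripts can be compared only per length, here as mean CPM per kilobase of the canonical GENCODE transcript. MALAT1 (41.8) and MIR100HG (28.8) led, followed by DANCR (13.7), TUG1 (10.1), EPB41L4A-AS1 (5.18), OIP5-AS1 (4.13), NEAT1 (2.63), MIR17HG (0.895) and MIR22HG (0.408). Neighbours kept this order in all 4 libraries except for 3 pairs. MALAT1 lay above MIR100HG in the 2 knockout-labelled libraries and below it in the 2 wild type ones. EPB41L4A-AS1 lay above OIP5-AS1 in the 2 wild type libraries and below it in the 2 knockout-labelled ones. MIR17HG lay above MIR22HG in 3 libraries. The order of these pairs thus depended on the library, and for the first 2 pairs it followed the genotype label. The value of NEAT1 rests on its long isoform of 22743 nucleotides, and reads of its short isoform cannot be told apart from it. Other values depend on the transcript chosen too. Canonical and longest transcripts have 1794 and 4534 nucleotides for MIR100HG, 3231 and 8881 for OIP5-AS1, 3959 and 6065 for DANCR. For MIR17HG they have 747 and 6564. Division by the longest transcript would lower these values, so the places of these transcripts in the order rest on that choice.

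The first comparison asked in which fraction each transcript lay, with the 2 gradients as replicates. All 9 transcripts had a lower CPM in heavy than in light polysomes in both gradients, and 8 of 9 were called toward light polysomes by edgeR's quasi-likelihood test at an adjusted p under 0.05. Over all 13574 genes tested, 29.3% were called toward light polysomes and 30.0% toward heavy. Of the 9, 0 were called toward heavy by edgeR, 0 had an unadjusted edgeR p under 0.05 in that direction, and 0 were called toward heavy by DESeq2. All 9 log2 ratios of both fits lay below 0, so these counts of 0 follow from them and are no further support. Median log2 heavy to light ratios were -1.27 for the 9 transcripts and -0.07 for all genes tested. The median was -1.23 for 430 lncRNA genes, of which 70.5% were called toward light. It was -1.22 for 926 protein-coding genes whose coding sequence has at most 500 nucleotides, of which 85.2% were called toward light. With 1 residual degree of freedom, these p-values rest on the disagreement between the genotypes shared across genes. The 2 gradients differ in genotype, so the spread that the p-values measure includes any genotype difference of the heavy to light ratio. With 1 gradient per genotype, they do not measure the spread between cultures of the same genotype. A technical part of the spread cannot be told apart.

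**Figure D2:**
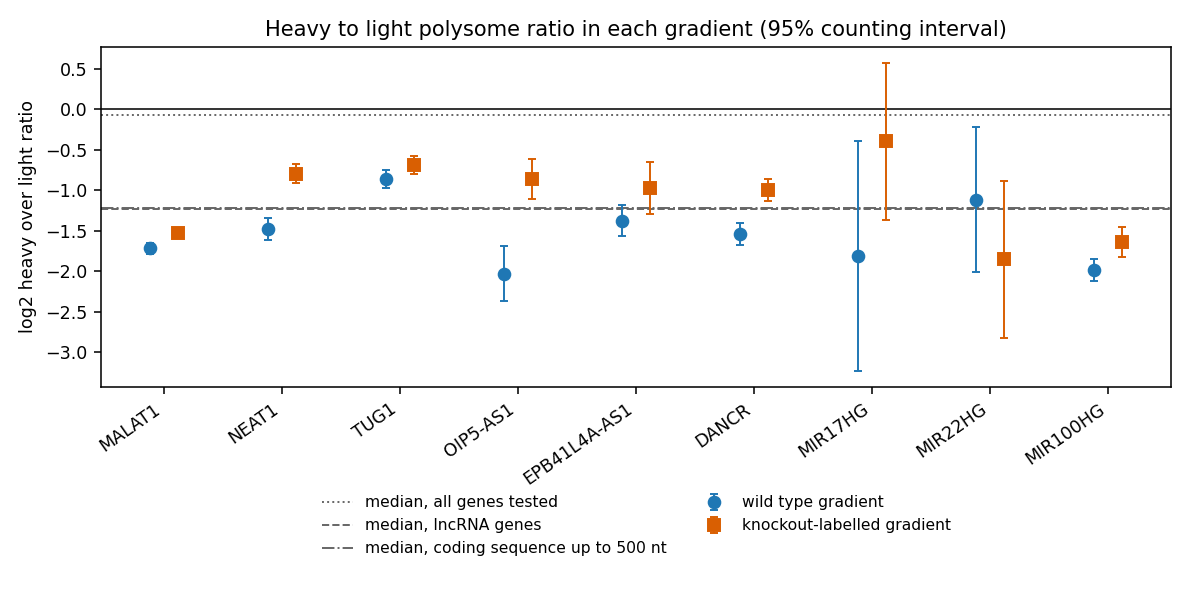
Log2 ratio of heavy to light polysomes for each transcript, in the wild type gradient (circles) and the knockout-labelled gradient (squares). Bars are 95% counting intervals, and the horizontal lines mark the medians of all genes tested, lncRNA genes and genes with short coding sequences. Apart from MIR17HG in the knockout-labelled cells, the intervals lie below 0.

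Among the nuclear RNAs, MALAT1, an RNA of nuclear speckles, gave 2323 heavy and 8893 light counts in the wild type gradient and 5659 heavy and 16621 light counts in the knockout-labelled gradient. Light polysomes held more in both gradients, and the fitted log2 heavy to light ratio was -1.62 (SE 0.32, edgeR adjusted p = 1.96e-06). NEAT1, the scaffold of paraspeckles, gave 545 heavy and 1776 light counts in the wild type gradient and 858 and 1514 in the other. It too was higher in light polysomes of each gradient, at -1.14 on the log2 scale (SE 0.27, edgeR adjusted p = 0.000101). The libraries are from cytoplasmic extract, and how much nuclear RNA it held was not measured. Of the 8 rows for other nuclear RNAs, fixed as a list, the summed level ran from 2.43 CPM in wild type heavy to 7.94 CPM in knockout-labelled light polysomes, with 4.77 CPM in wild type light and 5.25 CPM in knockout-labelled heavy. None of the 8 was at 0 in all libraries, though SCARNA10 and MEG3 had at most 1 count in any library. MIAT had at most 5, and RN7SK was listed but had no row. The part of these RNAs in the MALAT1 and NEAT1 values was not tested. Of the 3 that passed the filter on low counts, FIRRE, a chromatin-bound RNA, was called toward light (log2 ratio -0.95, edgeR adjusted p = 0.0256). KCNQ1OT1 (-0.31) and the telomerase RNA TERC (-0.63) were not called.

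Among the transcripts known from the cytoplasm, OIP5-AS1 gave 83 heavy and 401 light counts in the wild type gradient and 197 and 365 in the knockout-labelled one. Light polysomes held more in each, though the excess was smaller in the latter. The fitted log2 ratio of OIP5-AS1 was -1.43 (SE 0.27, edgeR adjusted p = 1.02e-06). TUG1, which is found in both nucleus and cytoplasm and has an annotated coding sequence in GENCODE, gave 956 heavy and 2019 light counts in the wild type gradient and 1113 and 1823 in the knockout-labelled one. By the fitted value TUG1 lay closest to equal levels of the 9, at -0.77 (SE 0.27, edgeR adjusted p = 0.00874). In the knockout-labelled gradient alone, MIR17HG (-0.40, on few counts) lay closer than TUG1 (-0.69). Without the gradient as a block, TUG1 just missed the threshold (edgeR adjusted p = 0.0501).

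DANCR and EPB41L4A-AS1 are spliced transcripts that also carry small nucleolar RNAs in their introns. DANCR gave 555 heavy and 1879 light counts in the wild type gradient and 618 and 1254 in the knockout-labelled one. The fitted value was -1.27 on the log2 scale (SE 0.27, edgeR adjusted p = 1.26e-05). EPB41L4A-AS1 gave 284 heavy and 862 light counts in the wild type gradient and 113 and 227 in the knockout-labelled one. Its fitted value was -1.20 on the log2 scale (SE 0.27, edgeR adjusted p = 3.14e-05). For both transcripts, light polysomes held more in each gradient, with the larger excess in the wild type. Without the gradient as a block, EPB41L4A-AS1 was not called (edgeR adjusted p = 0.0947).

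Among the microRNA hosts, MIR100HG had the lowest fitted log2 ratio of the 9 transcripts, though it was lowest in neither gradient alone. OIP5-AS1 (-2.03) lay below it (-1.98) in the wild type and MIR22HG (-1.85) below it (-1.64) in the knockout-labelled gradient, with overlapping counting intervals. It gave 521 heavy and 2403 light counts in the wild type gradient and 309 and 979 in the knockout-labelled one, for a fitted value of -1.82 on the log2 scale (SE 0.27, edgeR adjusted p = 6.38e-10). MIR22HG gave 12 heavy and 33 light counts in the wild type gradient and 9 and 38 in the knockout-labelled one. It was called at -1.63 (SE 0.46, edgeR adjusted p = 0.00111), but not by DESeq2 (adjusted p = 0.0694). MIR17HG gave 3 heavy and 18 light counts in the wild type gradient and 13 and 18 in the knockout-labelled one. It was not called (-1.11, SE 0.53, edgeR adjusted p = 0.0607), and at this depth a difference between the fractions was not detectable in the knockout-labelled cells (-0.40, counting interval -1.37 to 0.57).

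Other hosts of microRNAs were taken as 2 lists, noncoding and protein-coding. Of 22 other noncoding hosts listed, 7 passed the filter on low counts, with 4 called toward light, 1 toward heavy and a median log2 ratio of -1.02. MIR4435-2HG was the lowest at -1.88 (edgeR adjusted p = 1.07e-08), followed by LINC-PINT at -1.62, and MIR600HG was the one called toward heavy, at 1.28 (edgeR adjusted p = 0.00218). Of 30 protein-coding hosts, 29 were tested, with 12 called toward heavy, 8 toward light and a median of 0.42. MCM7, a helicase subunit that hosts the miR-106b-25 cluster, stood at 2.69 and the ubiquitin ligase HUWE1, a host of let-7 family members, at 2.26. At the other end were the host MEST at -1.45 and the spindle protein SKA2 at -1.43. Of 20 other lncRNAs listed, 16 were tested, with 14 called toward light and 1 toward heavy (median -1.45). HOTAIRM1 was the lowest at -1.87 and PANDAR the highest at 1.93.

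The open reading frames in these transcripts were short. The longest frame from an AUG to a stop codon in the canonical transcript was 61 codons in MIR100HG, 70 in MALAT1, 73 in OIP5-AS1, 86 in MIR22HG, 104 in MIR17HG, 120 in EPB41L4A-AS1, 135 in TUG1, 137 in NEAT1 and 194 in DANCR. MIR100HG had the shortest frame and the lowest fitted heavy to light ratio, and DANCR, with the longest frame, did not have the highest. A relation of frame length to the ratio was not tested. The files hold no ribosome footprints, so whether any of these frames was read is not measured. Reads of some rows may come from genes on the other strand, because the strand setting of the counting is not given in the sources used here. Reads of these transcripts may also have been lost where genes overlap, which was not tested. Of the canonical MALAT1 transcript, 83.7% overlaps exons of antisense genes such as TALAM1, of EPB41L4A-AS1 62.7%, of DANCR 27.2% and of TUG1 10.8%. On the same strand, 21.9% of OIP5-AS1 overlaps other genes, among them NUSAP1.

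The second comparison asked, fraction by fraction, how the level of each transcript in the knockout-labelled cells stood to that in the wild type. With 1 library on each side there is no replicate check and no p-value. Ratios are given with 95% counting intervals, which cover counting error and nothing else. The reads carry no molecular identifiers that would mark independent molecules, so even for counting error the intervals may be too narrow. In bulk libraries, fewer cells with a transcript and less of it per cell cannot be told apart. MALAT1 was at least 2-fold higher in the knockout-labelled cells in both fractions and EPB41L4A-AS1 at least 2-fold lower in both. These were 2 of the 7 transcripts whose higher library reached 100 counts in each pair. Over 10418 such genes, 1.17% were higher and 1.20% lower by this measure, 2.37% in all.

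**Figure D3:**
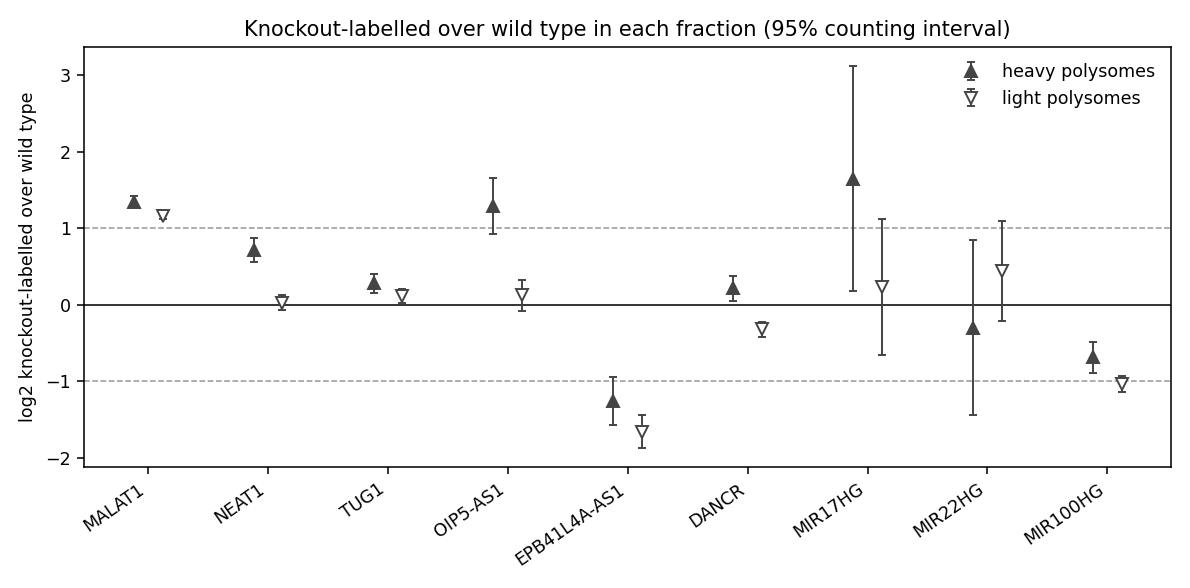
Log2 ratio of knockout-labelled to wild type for each transcript in heavy (filled) and light (open) polysomes, with 95% counting intervals and dashed lines at 2-fold. MALAT1 lies above the upper line and EPB41L4A-AS1 below the lower line in both fractions, and OIP5-AS1 and NEAT1 are raised in heavy polysomes while their light values lie near 0.

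MALAT1 stood at 123 CPM in wild type and 313 CPM in knockout-labelled heavy polysomes, and at 404 and 904 CPM in light ones, so that each knockout-labelled library lay above the wild type library of its fraction. The log2 ratios were 1.35 (counting interval 1.28 to 1.42) and 1.16 (1.13 to 1.20). Of 69 lncRNA genes with enough counts, MALAT1 was the single one at least 2-fold higher in both fractions. The share of RNA45S5 and the summed level of the nuclear RNA list, given above, were also higher in both knockout-labelled libraries. Their part in the MALAT1 difference was not tested. Whether RNA was selected by its poly(A) tail was not given in the sources used here. The part of such a step was not tested either. TERC, the telomerase RNA, had 9 counts in each wild type library, and 30 heavy and 60 light counts in the knockout-labelled cells. RPPH1, the RNA of RNase P, went from 5 to 19 light counts. Without these rows, a choice made after their values were seen, the other 6 of the list summed to 1.85 CPM in wild type and 3.37 CPM in knockout-labelled heavy polysomes, but to 4.13 and 3.65 CPM in light ones, where FIRRE had 61 counts in the wild type and 38 in the knockout-labelled cells. NEAT1, in contrast, was higher in heavy polysomes, with 28.8 against 47.4 CPM (log2 ratio 0.72, interval 0.56 to 0.87), and nearly level in light ones, with 80.6 and 82.4 CPM (0.03, -0.07 to 0.13).

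EPB41L4A-AS1 stood at 15.01 CPM in wild type and 6.24 CPM in knockout-labelled heavy polysomes, and at 39.1 and 12.4 CPM in light ones. Each knockout-labelled library lay below both wild type libraries. The log2 ratios were -1.25 (interval -1.56 to -0.94) and -1.66 (-1.87 to -1.45). The row of EPB41L4A, whose exons overlap it on the other strand, held 192 heavy and 439 light counts in the wild type gradient, and 306 and 394 in the knockout-labelled one. Of the 69 lncRNA genes, 6 were at least 2-fold lower in both fractions, a share of 8.70%. Besides EPB41L4A-AS1 these were ZEB1-AS1, SNHG8, THAP9-AS1, SNHG7 and APTR, with ZEB1-AS1 the lowest at log2 ratios of -2.25 and -2.41.

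Among the hosts, MIR100HG was lower in the knockout-labelled cells, at 27.5 and 17.1 CPM in heavy and 109 and 53.3 CPM in light polysomes. The log2 ratio was -1.03 (interval -1.14 to -0.93) in light polysomes, just past 2-fold, and -0.69 (-0.89 to -0.48) in heavy, short of it. The light value depended on the scaling, at -0.99 with edgeR's RLE factors, short of 2-fold, and -1.12 with library totals alone. MIR22HG stood at -0.30 (-1.44 to 0.85) in heavy and 0.44 (-0.21 to 1.09) in light polysomes, so a difference was not detectable at its depth. MIR17HG gave 3 heavy counts in the wild type and 13 in the knockout-labelled cells (1.65, 0.18 to 3.12), and 18 in both light libraries (0.23, -0.66 to 1.13). TUG1 differed little, by 0.28 (0.16 to 0.41) and 0.11 (0.02 to 0.21). DANCR lay slightly higher in heavy (0.22, 0.05 to 0.38) and slightly lower in light polysomes (-0.32, -0.42 to -0.22). Of the other hosts, 0 of 28 protein-coding ones with enough counts were 2-fold changed in both fractions, and none of the noncoding ones had enough counts.

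The third comparison asked whether the heavy to light ratio itself differed between the genotypes. The shift is the difference of both log2 heavy to light ratios, knockout-labelled minus wild type, so a value above 0 means relatively more of a transcript in heavy polysomes of the knockout-labelled cells. OIP5-AS1 had the largest shift among the 7 transcripts that reached 50 counts in every library. Its heavy polysome level was 4.39 CPM in the wild type and 10.9 CPM in the knockout-labelled cells, while its light level was 18.2 and 19.9 CPM. The log2 ratio was -2.03 (interval -2.37 to -1.69) in the wild type and -0.86 (-1.11 to -0.61) in the knockout-labelled cells, a shift of 1.17 (0.75 to 1.59). It was the 1 transcript of 7 past 2-fold. Over the 10834 genes of this depth, 0.905% shifted this far toward heavy and 2.37% toward light. NUSAP1, which shares exon sequence with OIP5-AS1, held 11011 heavy and 3997 light counts in the wild type gradient and 11914 and 7390 in the knockout-labelled one.

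**Figure D4:**
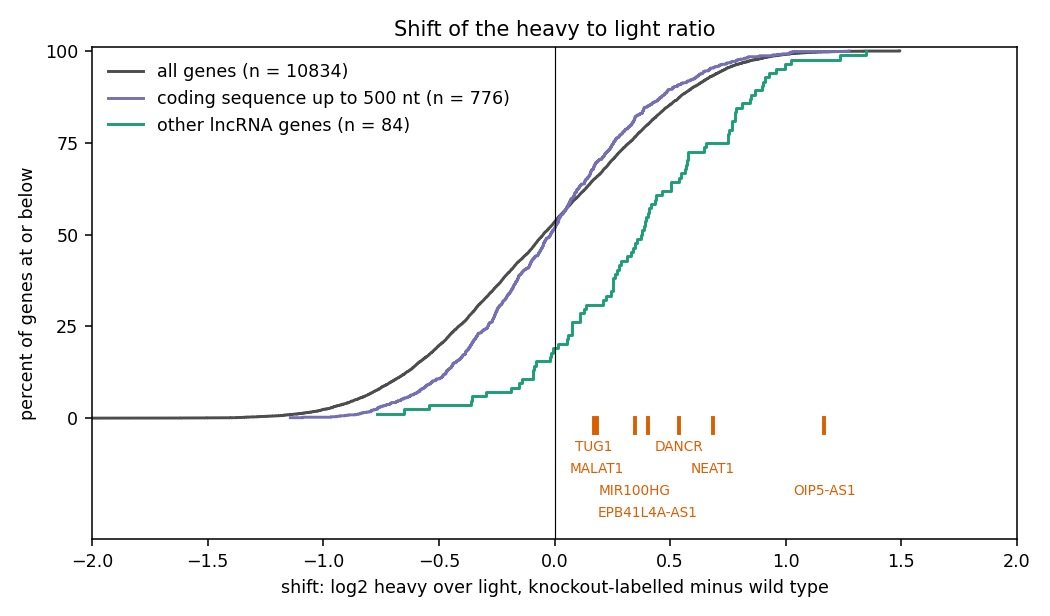
Cumulative distribution of the shift (horizontal axis, log2) over all genes, genes whose coding sequence has up to 500 nucleotides and lncRNA genes other than the ones followed here, each at 50 counts or more in every library; the orange ticks mark the 7 transcripts with enough counts. All 7 ticks lie right of 0, from 0.17 for TUG1 to 1.17 for OIP5-AS1.

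The other 6 of these transcripts had smaller shifts, also above 0. NEAT1 shifted by 0.69 (interval 0.50 to 0.87), DANCR by 0.54 (0.34 to 0.73), EPB41L4A-AS1 by 0.40 (0.03 to 0.78), MIR100HG by 0.35 (0.12 to 0.57), MALAT1 by 0.18 (0.10 to 0.26) and TUG1 by 0.17 (0.01 to 0.32). Thus all 7 transcripts with enough counts had a counting interval above 0, against 28.6% of the 10834 genes, and 0 had one below 0, against 37.2%. With edgeR's RLE scaling factors 5 of the 7 did, the exceptions being TUG1 and EPB41L4A-AS1, against 23.6% of genes. MIR17HG (1.41, -0.30 to 3.13) and MIR22HG (-0.74, -2.05 to 0.58) had too few counts for a direction. Of 84 other lncRNA genes with enough counts, 42 had an interval above 0 and 3 below it, with a median shift of 0.38. Genes whose coding sequence has up to 500 nucleotides, and whose heavy to light ratios were about as low, had a median shift of -0.02 over 776 genes, with 211 intervals above 0 and 282 below. These counts rest on 1 library per group, and a difference between the gradients themselves cannot be told apart from the genotype.

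Genes with the pattern most like each transcript were found by the Euclidean distance between log2 CPM values centred on each gene's mean, over the 4 libraries and the genes that reached 100 counts in each. The closest match of TUG1 was ZSCAN32, at a distance of 0.03 against a median of 1.09 over 9814 genes. DANCR was matched by DCAF12 (0.03), NEAT1 by TBC1D20 (0.05) and OIP5-AS1 by MMD (0.12). MMD gave 187 heavy and 879 light counts in the wild type gradient and 472 and 882 in the knockout-labelled one, again with nearly level light and unequal heavy values. MIR100HG was matched by SMIM14 (0.14), MALAT1 by CTHRC1 (0.17) and EPB41L4A-AS1 by S100A14 (0.22). ATP5J2 was closest to MIR22HG and ZNF280B to MIR17HG, but those patterns rest on few counts. A likeness over 4 libraries is a description.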

How the data were processed

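Polysomal RNA of HCT116 cells was sequenced in 4 libraries. The deposited values are raw read counts for each gene symbol, 1 column per library, and nothing in them points to a normalization by the authors. CASAVA, STAR, HTSeq and the build hg19 are named in the submitters' processing notes, per the labels. Versions, annotation, strand handling and whether RNA was selected by its poly(A) tail were not given in the sources used here. Totals ran from 17457116 to 20933675 counts, and 0 columns lacked a sample. The header joins its first names by spaces and was split accordingly.

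Heavy and light polysomes were compared over all genes with edgeR 4.0.16 in R 4.3.3 (TMM, filterByExpr, quasi-likelihood test, gradient as block, Benjamini-Hochberg adjustment, threshold 0.05). The fit was also run on simulated data, which held no difference between genotypes and so could not check how such a difference acts on it. DESeq2 1.42.0 was an alternative. Genotype ratios and shifts are log2 ratios of TMM-scaled CPM (prior count 2) with 95% counting intervals and no test. Positions, gene types and transcripts are from GENCODE 44 (GRCh38), matched by symbol for all 9 transcripts; counts stayed those on hg19. Genes are named as follows: all chosen transcripts, DICER1, the up to 2 highest and lowest of each list, the nearest pattern per transcript, and all lncRNA genes past 2-fold in both fractions, the last chosen after values were seen. Overlapping genes were added likewise. The transcripts and lists were chosen with earlier results of these data known. Python 3.11.15, numpy 2.4.6, pandas 2.3.3, scipy 1.17.1 and matplotlib 3.10.9 were used.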

Additional observations from a re-analysis of the deposited data

How the results depend on the processing

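The number of transcripts called toward light polysomes was 8 in the fit reported, 9 with library totals alone, 6 without the gradient as a replicate block, 7 with DESeq2 and 8 with RLE factors, without the filter on low counts and without RNA45S5. With library totals alone, MIR17HG was called (log2 ratio -1.34, edgeR adjusted p = 0.0313), where the median over all genes was -0.30 in place of -0.07 and the share of called genes that lay toward light 61.1% in place of 49.4%. Over all genes, 8051 were called in the fit reported and 5040 without the block. In the single gradients, the log2 heavy to light ratio kept its direction for all 9 transcripts. Leaving out a gradient leaves no residual degree of freedom and gives no count of calls. MALAT1 and EPB41L4A-AS1 stayed the 2 transcripts past 2-fold in both fractions, and OIP5-AS1 the 1 with a 2-fold shift, under each scaling, prior count and count minimum tried. The light-polysome ratio of MALAT1 between genotypes was 1.08 with library totals and 1.21 with RLE factors, and its shift 0.33 with library totals. Depth limits MIR17HG and MIR22HG, whose lowest counts were 3 and 9.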
